A study of Homo sapiens with 4 samples.

Results

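The genes described here carry peptides of the cell's own proteins to its surface on MHC class I molecules. They are 9 genes, HLA-B, HLA-C, HLA-E, B2M, TAP1, TAP2, TAPBP, ERAP1 and NLRC5, of 17214 named genes measured. They were taken by name, as every array probe whose RefSeq accession belongs to one of them, which gave 36 of 71998 probes in 12 of 24000 targets. A target is the set of probes, usually 3, that the array holds for 1 accession. The cells were HEK293, an established line of human embryonic kidney origin transformed with adenovirus DNA. They came from a single supplier stock, and no agent was given to any culture, so neither interferon nor another stimulus was part of the design. The 4 samples form 1 group of biological replicates, each from its own plate of cells grown to confluence, and the design holds no second condition to compare them with.

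Class I molecules are built from a heavy chain, such as those encoded by HLA-B, HLA-C and HLA-E, and the light chain beta-2 microglobulin, encoded by B2M. Proteasomes cut cytosolic proteins into peptides, the transporter made of TAP1 and TAP2 pumps these into the endoplasmic reticulum (ER), the aminopeptidase ERAP1 trims them, and tapasin, the product of TAPBP, holds the empty heavy chain at the transporter until a peptide fits. NLRC5 is the transactivator that drives transcription of the heavy chain genes, B2M and TAP1, and interferon gamma raises the whole set in most cell types. Nearly all nucleated cells carry class I molecules, and cytotoxic T cells and natural killer cells read them.

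The promoters of 5 of these genes are shown because the regulators described further on are known to act at such sites. RefSeq (GRCh38.p14) windows were at hand for 7 of the 9 genes, and HLA-E and NLRC5 had none. Each sequence runs 5′ to 3′ on the gene's own strand, from 250 bases before the annotated start to 30 after it, and is that of the first window listed for the gene. Capitals mark matches on either strand to 4 motifs. These are the core of the interferon-stimulated response element (GAAA, any 2 bases, GAAA), the inverted CCAAT box that NF-Y binds (CTGATTGG), a box like the cyclic AMP response element (TGACGC) and a box like the NF-kappa-B site (GGGA, any 4 bases, CC).
HLA-B, chr6:31357150-31357429, minus strand: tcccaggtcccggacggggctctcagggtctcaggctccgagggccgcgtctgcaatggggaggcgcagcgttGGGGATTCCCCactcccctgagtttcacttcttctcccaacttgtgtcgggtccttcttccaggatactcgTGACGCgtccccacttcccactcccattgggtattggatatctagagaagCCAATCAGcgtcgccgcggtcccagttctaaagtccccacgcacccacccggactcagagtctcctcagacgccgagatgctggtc
HLA-C, chr6:31272063-31272342, minus strand: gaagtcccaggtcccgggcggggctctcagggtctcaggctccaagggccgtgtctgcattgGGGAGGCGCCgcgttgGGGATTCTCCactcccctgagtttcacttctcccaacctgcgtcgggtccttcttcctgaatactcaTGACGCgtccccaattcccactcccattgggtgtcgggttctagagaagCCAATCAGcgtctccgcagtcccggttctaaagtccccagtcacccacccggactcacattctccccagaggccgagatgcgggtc
B2M, chr15:44711267-44711546, plus strand: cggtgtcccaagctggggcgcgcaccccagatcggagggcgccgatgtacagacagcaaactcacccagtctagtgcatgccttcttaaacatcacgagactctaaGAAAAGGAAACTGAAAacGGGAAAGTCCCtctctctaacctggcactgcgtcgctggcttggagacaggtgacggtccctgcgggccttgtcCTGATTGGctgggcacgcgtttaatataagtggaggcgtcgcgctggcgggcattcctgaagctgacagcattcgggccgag
TAP1, chr6:32853675-32853954, minus strand: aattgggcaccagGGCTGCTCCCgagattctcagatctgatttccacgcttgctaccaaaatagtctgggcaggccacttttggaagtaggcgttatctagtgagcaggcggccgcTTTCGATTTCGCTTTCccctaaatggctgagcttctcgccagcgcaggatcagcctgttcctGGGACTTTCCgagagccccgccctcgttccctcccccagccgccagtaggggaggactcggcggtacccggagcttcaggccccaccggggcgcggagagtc
ERAP1, chr5:96807916-96808195, minus strand: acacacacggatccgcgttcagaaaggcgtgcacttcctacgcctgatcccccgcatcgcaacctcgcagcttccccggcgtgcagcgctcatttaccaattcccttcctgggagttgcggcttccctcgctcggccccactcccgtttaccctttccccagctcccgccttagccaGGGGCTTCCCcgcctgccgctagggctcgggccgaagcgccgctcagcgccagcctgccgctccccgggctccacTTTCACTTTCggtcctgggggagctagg

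HLA-B and HLA-C both held the CCAAT box in the direct orientation (CCAATCAG) 56 bases before the start. They held the TGACGC box 106 and 105 bases before it. B2M held the inverted CCAAT box 52 bases before its start and 2 overlapping response element cores from 144 bases before it. TAP1 held 2 overlapping cores from 134 bases before its start and no match to the CCAAT box on either strand. ERAP1 held 1 core, which began 2 bases after its start. In the windows not printed, TAP2 held 1 core 58 bases before its start and TAPBP 2 overlapping cores from 20 bases before it. Of all 35116 promoter windows of this length, 3.39% held the response element core on either strand and 3.91% the CCAAT box on either strand. The TGACGC box was found in 8.66% and the box like the NF-kappa-B site in 24.1%, so that the last is a frequent match. Matches for the NF-kappa-B form overlap each other in HLA-B and B2M. These are matches of letters, not binding sites.

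Each value is the log2 intensity of a 60-base probe after hybridisation with Cy3-labelled cDNA that was primed at the poly(A) tail. Following the study's rule, the mean plus 2 SD of seminal protein genes, which the line was thought not to transcribe, was taken on each array as the baseline. It lay at 9.47, 9.94, 10.69 and 10.32 log2 units on replicates 1 to 4. The controls were not alike. SPATA5 and SPATA13 had mean levels of 9.97 and 9.72 log2 units, and the others lay at 6.53 to 7.25. With SPATA5 and SPATA13 the baseline averaged 10.10 log2 units over the arrays, and without them 7.78, so these controls largely set its height. A gene's level is its log2 intensity, its distance is the level minus that array's baseline, and it is called detected where the mean distance over the 4 arrays is above 0. Probes differ in how well they bind, so neither a level nor a distance ranks 2 genes by the amount of their RNA. Arrays stood apart in pairs. Replicates 1 and 2 shared their distribution of values and so did 3 and 4, whereas across genes the highest correlations were those of 1 with 3 (Pearson's r = 0.971) and of 2 with 4 (0.977), against 0.949 to 0.959 for the other pairs. Of 8 genes chosen as markers of the line, 7 were detected (87.5%, beside 52.7% of all genes), namely VIM, KRT8, CDH2, NEFL, NEFH, KRT18 and NEFM. Limma called 6 of them, without NEFM (limma adjusted p = 0.0644). The gene not detected was PAX2, a kidney transcription factor, at -1.63 ± 0.74 log2 units from the baseline (SD, n = 4). It turned positive under the 3 lowest of 6 baselines tried. The neurofilament gene NEFM stood 4.1 and 2.4 above the baseline on replicates 1 and 3 but -1.62 and -2.24 from it on replicates 2 and 4, so that these arrays do not report the line alike. Of 12 leukocyte markers 0 were detected, with single values of 5.69 to 10.11 log2 units, and 11 lay below the baseline on all 4 arrays. Limma's test called 0 as well, since all 12 mean distances were negative, the highest being -0.75. With the lowest baseline tried, 4 of the 12 came out above it.

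HEK293 cells gave signals above the baseline for HLA-B, HLA-C, HLA-E, the light chain and TAP1 under every baseline tried. Mean distances of TAP2 and TAPBP also stayed above 0, but limma's call of both ended with the highest baseline. NLRC5 lay above or below the baseline depending on its definition, and ERAP1 stayed below it throughout. Of the 9 genes, 7 were detected, against 52.7% of all named genes. The same 7, HLA-B, HLA-C, HLA-E, B2M, TAP1, TAP2 and TAPBP, lay above the baseline on all 4 arrays (45.0% of all genes did) and were called by limma's one-sided test against the baseline with Benjamini-Hochberg adjustment over all genes (45.9% of all genes were). ERAP1 and NLRC5 lay below the baseline on each of the 4 arrays, as 39.8% of all genes did. The median distance of the 9 genes was 3.13 log2 units, beside 0.26 over all genes. An exact sign-flip test over 4 arrays cannot give a one-sided p under 0.0625, so the calls rest on limma's pooled estimate of the spread. With the highest baseline tried, the mean plus 3 SD, limma called 5 of the 9, without TAP2 and TAPBP, and with each of 2 other control sets it called 8, with NLRC5. That estimate of the spread gave every gene the same standard error, 0.351 log2 units, and a shift of a baseline moves all genes of an array together.

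**Figure D1:**
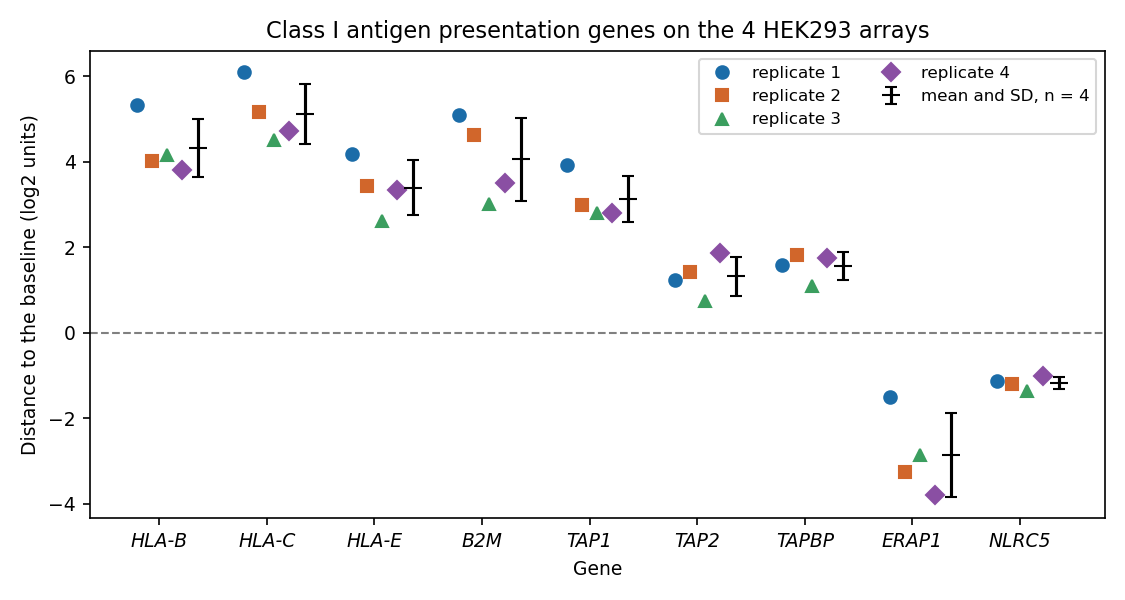
Distance of each of the 9 genes to the array's baseline in log2 units (vertical axis), with 1 marker for each of the 4 replicates and a bar for the mean and SD. The heavy chains, B2M, TAP1, TAP2 and TAPBP sit above the dashed line at 0 on every array, TAP2 and TAPBP at 0.75 to 1.86, and ERAP1 and NLRC5 sit below it.

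HLA-C encodes a classical heavy chain that presents peptides to T cells and is also the main ligand of natural killer cell receptors of the KIR family. Its level was 15.57, 15.10, 15.19 and 15.03 log2 units on replicates 1 to 4, highest on replicate 1. Its mean distance was 5.12 ± 0.71 log2 units (SD, n = 4). HLA-B, the most variable classical heavy chain gene in humans, gave levels of 14.78, 13.96, 14.85 and 14.14 on replicates 1 to 4, at 4.33 ± 0.67 over the baseline (SD, n = 4). The readings of both genes were higher on replicates 1 and 3 than on replicates 2 and 4, the HLA-B level by more than the HLA-C level. HLA-E, whose product shows leader peptides of other heavy chains to the receptor NKG2A, varied least in level. It stood at 13.66, 13.37, 13.30 and 13.66 on replicates 1 to 4 (mean 13.50 ± 0.19, SD, n = 4), with a mean distance of 3.39 ± 0.65 (SD, n = 4). No olfactory receptor gene, of 364 measured, reached the level of any of these heavy chain genes on any array.

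The heavy chain genes are close relatives, and the sequences of their probes were not used here. How much of the HLA-B or HLA-C signal came from the RNA of another heavy chain gene was not tested. Among the nonclassical relatives HLA-F had a mean distance of 0.36 ± 0.84 (SD, n = 4, limma adjusted p = 0.306), being above the baseline on replicates 1 and 2 and below it on 3 and 4. HLA-G, best known from the placenta, stood at -1.89 ± 1.13 (SD, n = 4) and below the baseline on all 4 arrays. These readings moved with the baseline. HLA-F was called by limma under each of the 4 lower baselines, at 1.68 to 2.69, and on replicates 1 and 2 alone, at 1.09 (limma adjusted p = 0.0198), but turned negative under the highest baseline. HLA-G turned positive under the 2 lowest of the 6 baselines.

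B2M encodes the light chain that every class I heavy chain needs to reach the surface. Its level was 14.55, 14.57, 13.70 and 13.82 log2 units on replicates 1 to 4. Replicates 1 and 2 lay above replicates 3 and 4 by more than the gap within either pair, and those are also the pairs of arrays with a shared distribution of values. The mean distance was 4.05 ± 0.96 log2 units (SD, n = 4), the widest spread among the detected genes of the set.

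TAP1 and TAP2 encode the subunits of the peptide transporter, and each is needed for transport. The level of TAP1 was 13.39, 12.91, 13.50 and 13.13 log2 units on replicates 1 to 4, and its mean distance was 3.13 ± 0.54 (SD, n = 4). TAP2 gave 10.71, 11.37, 11.44 and 12.18 on replicates 1 to 4, with a mean distance of 1.32 ± 0.46 (SD, n = 4, limma adjusted p = 0.000219). Its call ended with the mean plus 3 SD as baseline, at 0.00297 (limma adjusted p = 1), and on replicates 1 and 3 alone, at 0.995 (limma adjusted p = 0.134). TAP2 was nearer the baseline than TAP1 on every array, without any overlap between their distances, although different probes cannot tell how the RNA of the subunits compares. TAP2 had 2 targets, which ordered the arrays differently. NM_000544 read 11.08, 12.25, 11.09 and 12.06 on replicates 1 to 4, high on replicates 2 and 4. NM_018833, a transcript with another end, read 10.33, 10.49, 11.80 and 12.30, high on replicates 3 and 4.

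Tapasin, the product of TAPBP, bridges the transporter and the empty heavy chain. Its gene had levels of 11.06, 11.76, 11.79 and 12.08 on replicates 1 to 4 and stood 1.57 ± 0.33 above the baseline (SD, n = 4, limma adjusted p = 1.16e-05), and with the mean plus 3 SD as baseline it stood at 0.248 (limma adjusted p = 0.717). This mean covers 3 targets that differed widely. NM_003190 stood 3.08 ± 0.71 above the baseline (SD, n = 4) and above it on all 4 arrays, NM_172209 stood at 1.42 ± 0.31 (SD, n = 4), and NM_172208 stood at 0.19 ± 0.53 (SD, n = 4) and above it on 2 of 4 arrays. With the highest target in place of the mean of targets, TAPBP stood at 3.05 (limma adjusted p = 5.7e-17). TAPBPL, a tapasin relative that edits peptides away from the transporter, stood at -1.25 ± 0.51 (SD, n = 4) and below the baseline on all 4 arrays, but turned positive under each of the 4 lower baselines.

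**Figure D2:**
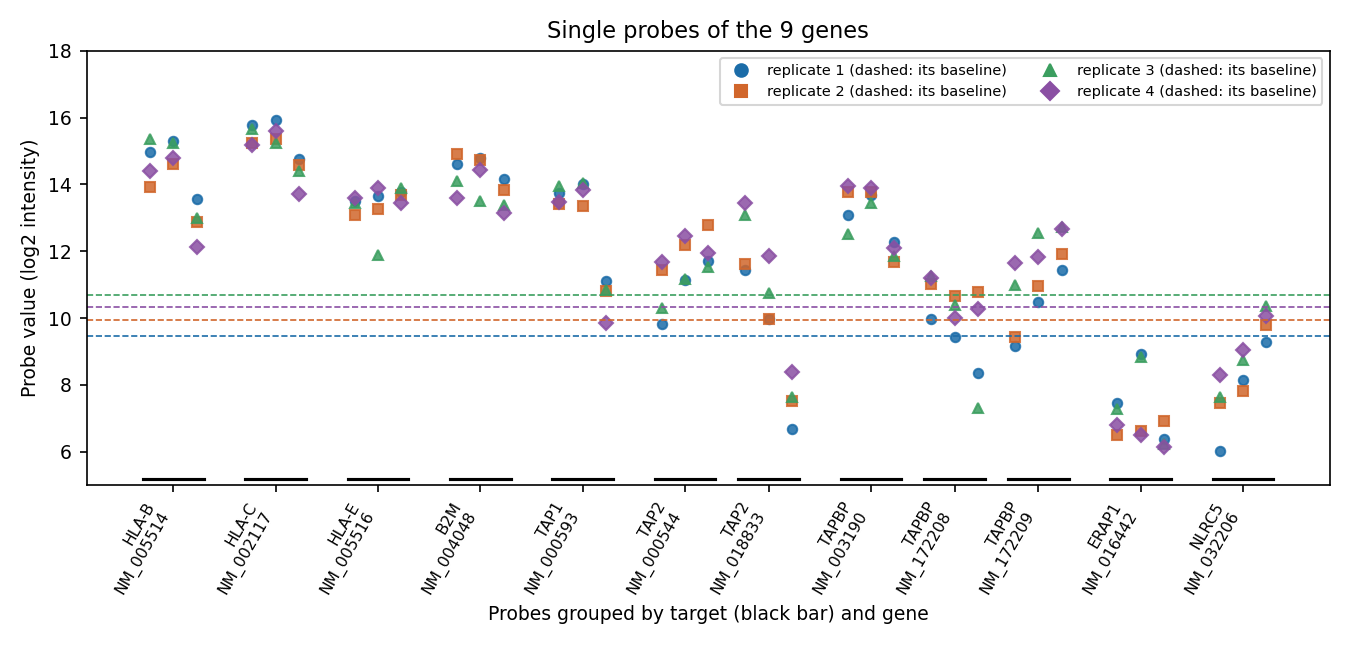
Log2 intensity (vertical axis) of each of the 36 probes of the 9 genes, with 1 marker per replicate, grouped along the horizontal axis by target and gene. Dashed lines give the 4 baselines. The probes of HLA-B, HLA-C, HLA-E and B2M lie above their baselines throughout, those of ERAP1 and NLRC5 below, and those of TAP2 and TAPBP spread over both sides.

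Single probes showed how evenly a gene was read. Of the 36 probes, 28 had a mean above the baseline, beside 43.2% of all probes on the array, and 106 of 144 single probe values did, beside 43.5% of all probe values. All 12 values of HLA-B, of HLA-C, of HLA-E and of B2M lay above their baselines, and 0 of 12 did for ERAP1 and 0 of 12 for NLRC5. In TAP1 the mean levels of the 3 probes spanned 3.17 log2 units, with 1 value below the baseline, on replicate 4. Over all targets with 3 probes the median span was 1.44 log2 units. The probe means of HLA-E spanned 0.53 log2 units and those of B2M 0.73, both narrower than that median, whereas those of NLRC5 spanned 2.52. The lowest TAP2 probe, in NM_018833, read 6.68, 7.51, 7.64 and 8.39 on replicates 1 to 4, below the baseline on each, while another probe of that target read 11.43 to 13.44. A single HLA-E probe read 11.88 on replicate 3, where the gene's level was lowest, and 13.26 to 13.90 elsewhere.

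ERAP1, the ER aminopeptidase that trims peptides to the length class I molecules hold, was not detected. Its level was 7.96, 6.68, 7.84 and 6.52 log2 units on replicates 1 to 4, high on replicates 1 and 3 and low on 2 and 4. Its mean distance was -2.85 ± 0.98 log2 units (SD, n = 4), the widest spread in the set. A probe of ERAP1 read 8.93, 6.62, 8.84 and 6.52 on replicates 1 to 4, and another 7.45, 6.49, 7.28 and 6.81. The remaining probe did not follow this order and read 6.39, 6.91, 6.24 and 6.15, highest on replicate 2. Of 364 olfactory receptor genes, a family expressed mainly in the nose, 13, 81, 41 and 326 read higher than ERAP1 on replicates 1 to 4. ERAP1 thus lay above most of that family on replicates 1 to 3 and below most of it on replicate 4. ERAP2, the partner aminopeptidase that can form dimers with ERAP1, stood 2.50 ± 0.59 above the baseline (SD, n = 4), and on all 4 arrays. LNPEP, another member of this enzyme family that trims peptides in endosomes, stood at 2.23 ± 0.22 (SD, n = 4). ERAP1 was read by 1 target, NM_016442, whereas the gene table lists 4 curated transcripts, and RNA outside the reach of its probes was not read.

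NLRC5 encodes the class I transactivator. Its level was 8.35, 8.74, 9.33 and 9.30 on replicates 1 to 4, and its distance was the steadiest of the set, at -1.17 ± 0.14 log2 units (SD, n = 4). On the 4 arrays 8, 5, 3 and 4 of the 364 olfactory receptor genes read higher. NLRC5 thus lay below the study's baseline but above nearly all olfactory receptor genes. With the olfactory receptor genes as controls it stood at 0.91 (limma adjusted p = 0.00114), and without SPATA5 and SPATA13 among the controls at 1.16 (limma adjusted p = 7.73e-05). Whether it is called therefore depended on the controls, which was true of no other gene of the 9. It too had 1 target, NM_032206, of 26 curated transcripts in the gene table.

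**Figure D3:**
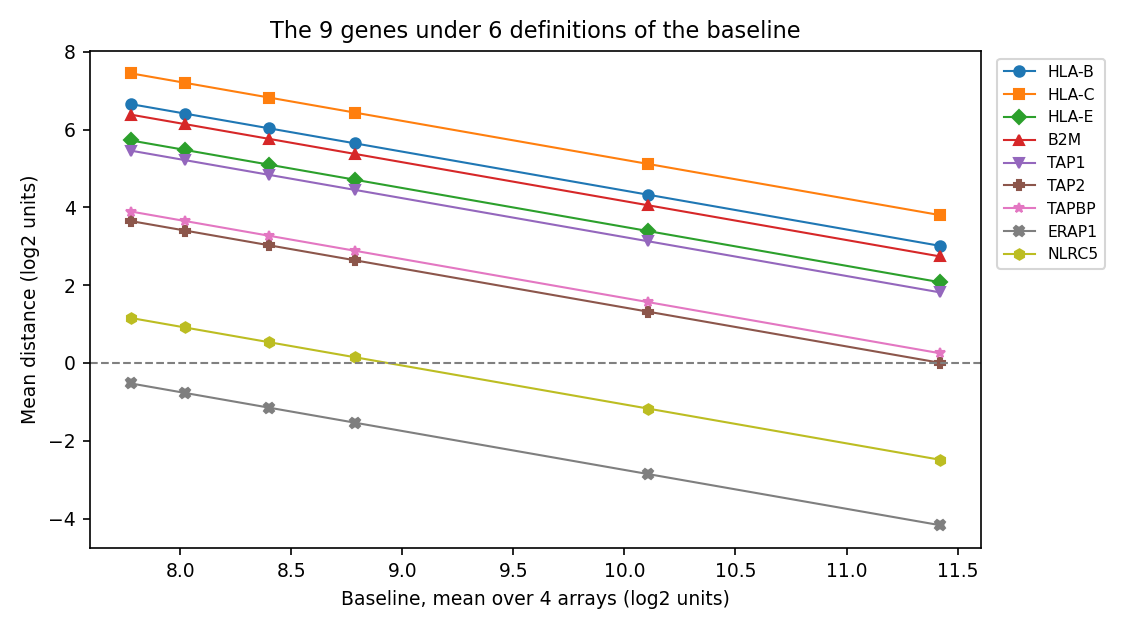
Mean distance of each of the 9 genes (vertical axis, log2 units) against the height of the baseline averaged over the 4 arrays (horizontal axis, log2 units), under 6 definitions of the baseline from 7.78 to 11.42. A single gene, NLRC5, crosses the dashed line at 0, while ERAP1 stays below it throughout and TAP2 touches it at the highest baseline, at 0.00297.

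Arrays did not move the set as a whole. The levels of 4 of the 9 genes, HLA-B, HLA-C, TAP1 and ERAP1, were higher on both replicates 1 and 3 than on both 2 and 4, as were those of 22.2% of all genes, and 0 were lower, as were 18.5%. Between replicates 1 and 2 and replicates 3 and 4, B2M was higher on the former pair (18.3% of all genes) and TAP2, TAPBP and NLRC5 were lower (25.0% of all genes). These pairs were known from the arrays' likeness to each other, so the counts are a description. The median SD of the level was 0.45 log2 units for the 9 genes and 0.42 for all genes. For the gene with the largest mean distance, HLA-C, the 3 genes whose distances were most alike over the 4 arrays were DDB1, MYH9 and GABARAP, at root mean square differences of 0.093, 0.106 and 0.123 log2 units. For the gene with the smallest, ERAP1, they were KRTAP19-5, BSN and PNLIPRP2, at 0.111, 0.134 and 0.203. With 4 arrays, such likeness is mostly that of the mean.

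The genes that supply peptides were mostly detected, with the immunoproteasome as the exception. The list of proteasome and peptidase genes held 17, of which 14 were detected (82.4%, beside 52.7% of all genes), and all 14 exceeded the baseline on every array. Proteasomes carry 3 catalytic subunits that interferon gamma swaps for inducible ones. The standard subunits PSMB5, PSMB6 and PSMB7 exceeded the baseline by 4.16 ± 0.55, 4.19 ± 0.71 and 4.59 ± 0.73 log2 units (SD, n = 4 for each). Their inducible counterparts PSMB8, PSMB9 and PSMB10 stood at -2.88 ± 0.48, -1.45 ± 0.67 and -1.57 ± 0.74 (SD, n = 4 for each), and each lay below the baseline on all 4 arrays. These were the 3 genes of the list that were not detected, and under the 3 lowest baselines PSMB9 and PSMB10, though not PSMB8, turned positive. PSME1 and PSME2, which encode the proteasome activator that interferon gamma also raises, stood at 2.95 ± 0.87 and 1.69 ± 0.36 (SD, n = 4 for each). With the mean plus 3 SD as baseline PSME2 stood at 0.369 (limma adjusted p = 0.485). The largest distances in the list also included the cytosolic peptidases NRDC at 4.49 ± 0.50 and BLMH at 4.38 ± 0.75 (SD, n = 4 for each).

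In the stretch from HLA-DOB to HLA-DOA, immediate neighbours of the transporter genes lay below the baseline, and the genes beyond PSMB9 did not. Genes outside this stretch were not placed in order, so no wider pattern along the chromosome is described. TAP1 and PSMB9 start 488 bases apart on opposite strands in the reference, and the region between them is known as a shared promoter. TAP1 was above the baseline and PSMB9 below it on each of the 4 arrays, a contrast that held under the study's baseline but not under the 3 lowest. TAP2 and PSMB8 differed in the same way, as did TAP2 and its other neighbour HLA-DOB, which stood at -2.39 ± 0.81 (SD, n = 4). ERAP1 also has neighbours that were detected, ERAP2 and LNPEP. Beyond PSMB9, HLA-DMB, HLA-DMA and HLA-DOA exceeded the baseline on every array. The chromatin regulator BRD2, which lies in the same stretch and was named after its value was seen, did so too, at 5.57.

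**Figure D4:**
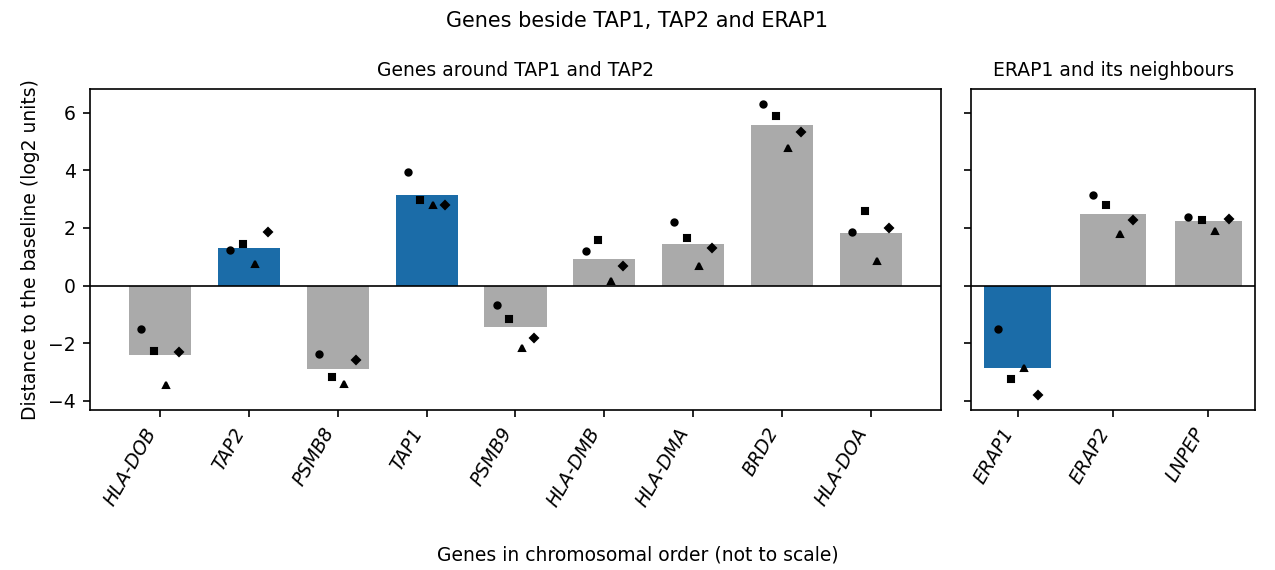
Mean distance to the baseline in log2 units (vertical axis, bars from 0) for the genes beside TAP1 and TAP2 (left) and beside ERAP1 (right), in chromosomal order and not to scale. The small markers are the 4 replicates, in the order 1 to 4 within a bar. Blue bars are genes of the set, TAP1 at 3.13, TAP2 at 1.32 and ERAP1 at -2.85, and grey bars are their neighbours, of which HLA-DOB, PSMB8 and PSMB9 lie below 0 and the others above.

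The ER proteins that fold and hold class I molecules gave 5 detected genes of 7 measured (71.4%, beside 52.7% of all genes), and UGGT1 was not matched. Calreticulin (CALR), the chaperone of the loading complex, stood at 5.48 ± 0.62 log2 units, calnexin (CANX) at 3.33 ± 0.86, BCAP31, which helps class I molecules leave the ER, at 4.60 ± 0.67, SEC61A1 of the protein-conducting channel at 3.04 ± 0.48 and the chaperone HSPA5 at 1.78 ± 0.94 (SD, n = 4 for each). With the mean plus 3 SD as baseline HSPA5 stood at 0.465 (limma adjusted p = 0.335). PDIA3, the thiol oxidoreductase bound to tapasin, lay at the baseline, at -0.10 ± 0.50 (SD, n = 4), above it on replicates 1 and 2 and below it on 3 and 4, and it turned positive under the 4 lower baselines.

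Other class I and class I-like genes were mixed. Of 17 measured, 9 were detected (52.9%, beside 52.7% of all genes), and 6 exceeded the baseline on every array. Clear signals came from the stress ligands MICB at 2.89 ± 0.61 and MICA at 2.79 ± 0.65, which the natural killer cell receptor NKG2D recognises, and from FCGRT, the neonatal Fc receptor heavy chain, at 2.49 ± 0.60 (SD, n = 4 for each). The NKG2D ligand ULBP3 lay near the baseline at 0.15 ± 0.56 (SD, n = 4, limma adjusted p = 0.647), with 1.47 to 2.48 and a limma call under each of the 4 lower baselines and -1.16 under the highest.

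Of 13 transcription factor genes listed for class I promoters 11 were detected (84.6%, beside 52.7% of all genes), 10 of them on every array. NFYC and NFYA, subunits of the factor that binds the inverted CCAAT box printed above, stood at 3.24 ± 0.71 and 3.17 ± 0.41, and the NF-kappa-B subunit RELA at 3.06 ± 0.45 (SD, n = 4 for each). Their partner NFYB lay at the baseline, at 0.09 ± 0.59 (SD, n = 4, limma adjusted p = 0.775), with 1.40 to 2.41 and a limma call under each of the 4 lower baselines and -1.23 under the highest. Of the RFX complex, RFX5 and RFXANK stood at 2.38 ± 0.82 and 2.59 ± 0.54, and RFXAP lay below the baseline on all 4 arrays at -2.81 ± 0.59 (SD, n = 4 for each). IRF1, an inducible activator that binds the response element core, was the other factor not detected, at -2.17 ± 0.47 (SD, n = 4), and turned positive under the lowest baseline.

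The interferon gamma receptor and the kinase JAK1 were detected, while JAK2 was not. Of 8 genes in this path 5 were detected (62.5%, beside 52.7% of all genes). The receptor chains IFNGR1 and IFNGR2 stood at 3.08 ± 0.69 and 3.65 ± 0.58, and JAK1 at 4.36 ± 0.52 (SD, n = 4 for each). JAK2 had a mean distance of -1.11 ± 0.97 (SD, n = 4), lay above the baseline on replicate 1 alone and turned positive under the 4 lower baselines. IRF9 stood at 0.89 ± 1.25 (SD, n = 4, limma adjusted p = 0.0126), with 2.61 and 0.93 on replicates 1 and 3 and 0.31 and -0.28 on replicates 2 and 4. Without replicate 1 it stood at 0.321 (limma adjusted p = 0.366), and its call also ended on replicates 3 and 4 alone (limma adjusted p = 0.447), on replicates 2 and 4 alone (0.925), with the median of probes (0.0593) and with the highest baseline.

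Class II genes, which present peptides to helper T cells and belong to professional antigen-presenting cells, gave 4 detected genes of 12 (33.3%, beside 52.7% of all genes), with a median distance of -1.50 log2 units, and 2 to 9 under the other baselines. CIITA, the class II counterpart of NLRC5, stood at -2.81 ± 0.36, the invariant chain gene CD74 at -1.87 ± 0.64 and HLA-DRA at -3.09 ± 0.34, each below the baseline on all 4 arrays (SD, n = 4 for each), of which CD74 turned positive under the 2 lowest baselines. The 4 detected were HLA-DOA at 1.82 ± 0.72, HLA-DMA at 1.46 ± 0.64, HLA-DPA1 at 1.22 ± 0.79 and HLA-DMB at 0.91 ± 0.62 (SD, n = 4 for each), the last of which lost its call without replicate 2 (0.681, limma adjusted p = 0.132). With the mean plus 3 SD as baseline limma called none of the 4, with HLA-DOA at 0.505 (limma adjusted p = 0.284) and HLA-DMA at 0.139 (0.956). HLA-DPA1 also lost its call on replicates 3 and 4 alone (limma adjusted p = 0.107) and on 1 and 3 alone (0.191). HLA-DMB did so on those pairs as well (0.262 and 0.301) and with the mean of log2 probe values (0.54). The HLA-DM and HLA-DO genes encode proteins that edit class II peptides inside the cell. The 5 listed genes of the Polycomb repressive complex PRC2, which in some tumours silences class I genes, were detected, beside 52.7% of all genes. Each exceeded the baseline on every array, as 45.0% of all genes did. EZH2 stood at 2.65 ± 0.83, MTF2 at 2.48 ± 0.90, PHF19 at 2.24 ± 0.61, SUZ12 at 1.54 ± 0.88 and EED at 1.37 ± 1.12 (SD, n = 4 for each). Whether PRC2 acted on the class I genes here was not tested. With the mean plus 3 SD as baseline, limma's call ended for SUZ12, at 0.223 (limma adjusted p = 0.77), and for EED, at 0.0486. EED also lost its call on replicates 3 and 4 alone, at 0.518 (limma adjusted p = 0.161).

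**Figure D5:**
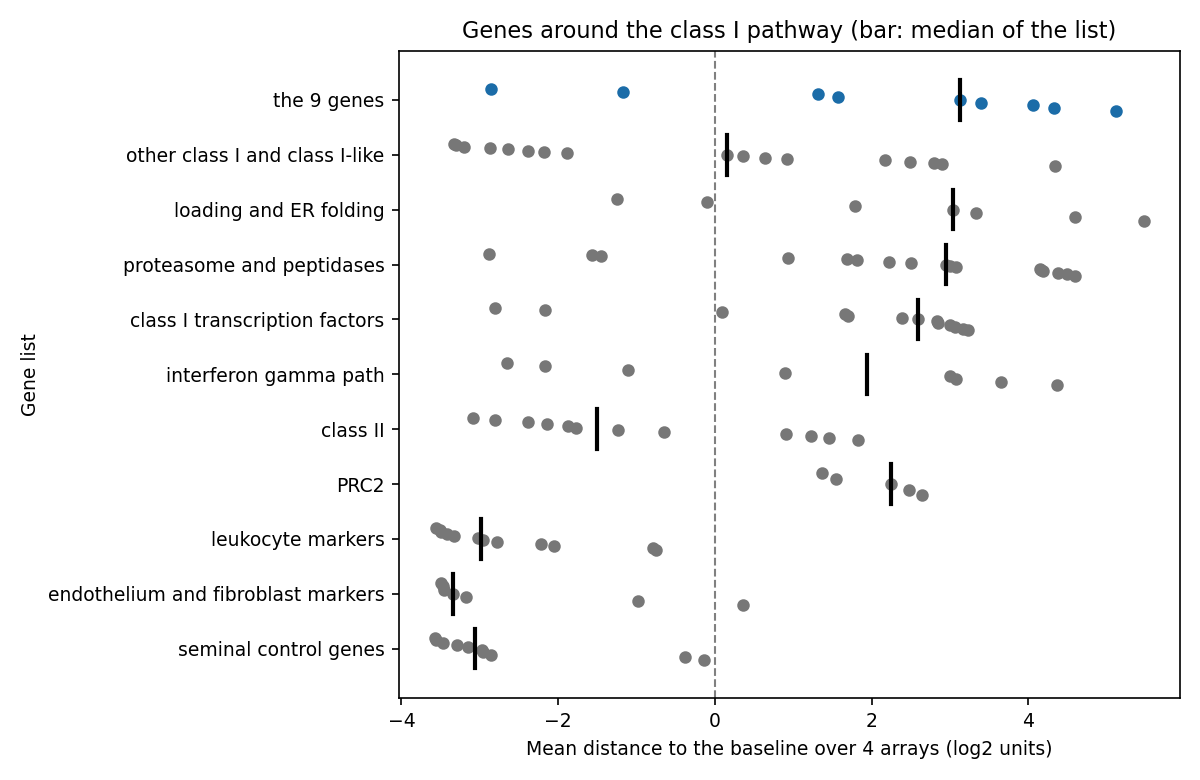
Mean distance to the baseline over 4 arrays in log2 units (horizontal axis) of each gene in the lists named on the vertical axis, with a black bar at the median of each list and a dashed line at 0. The 9 genes are blue. Their median is 3.13, that of the class II list -1.50 and that of the leukocyte markers -2.99.

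Of 7 markers of endothelium and fibroblasts 1 was detected (14.3%, beside 52.7% of all genes), COL1A1, at 0.37 ± 1.19 (SD, n = 4, limma adjusted p = 0.303). It exceeded the baseline on replicates 1 and 3 alone and was called by limma under each of the 4 lower baselines. In whole cultures, a lower level can come from fewer cells that make an RNA or from less of it in each, and these arrays cannot tell these apart.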

How the data were processed

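RNA of 4 HEK293 cultures was hybridised to single-colour NimbleGen arrays designed on HG18. According to the methods, NimbleScan 2.4 extracted the intensities, and the authors log2 transformed them. The deposited values are log2 intensities, 1 per probe and array. The submitters' processing notes name RMA, without version or settings. Sorted values agreed within 0.01 at 99.97% of ranks between replicates 1 and 2 and at 99.99% between 3 and 4, but at 1.23% to 1.25% in other pairs, the form that quantile normalization within pairs gives. Raw intensities and spot flags were not analysed here, and the 4 arrays limit the precision.

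A RefSeq table of GRCh38.p14, searched with unversioned accessions, named 19122 of 24000 targets and was used for names and gene order. Linear probe values were averaged within a target and returned to log2, and targets were averaged within a gene. The baseline was the mean plus 2 SD of 10 of the study's 11 seminal genes; PYY2 had no match. SPATA5 is now AFG2A. Distances of 17214 genes were tested against 0 with limma 3.58 in R 4.3 (one-sided, Benjamini-Hochberg over all genes, threshold 0.05), after the script was tested on simulated data. The members and lists were chosen with earlier results of these data known. In each list all detected genes were named where there were 8 or fewer, otherwise the 4 with the largest distance and those within 0.5 log2 units of the baseline. Other genes of a list were named for their relation to the set, and some that the rule names are not reported here. Alternatives changed the baseline, controls, probe and target summaries, normalization, filter, limma settings and arrays. The plates were separate cultures of 1 stock. The p-values rest on the spread between these cultures and arrays pooled over all genes, not on each gene's own spread. They also do not cover how the choice of control genes sets the baseline.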

Additional observations from a re-analysis of the deposited data

Results flagged for a closer look

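Of 80 values looked at, the distances of the 9 genes and of 62 others and the levels of the 9, 1 had an array whose gap passed the critical value that Dixon's test sets for groups of 4, as chance alone does in about 1 in 20. For TAP1 the distance on replicate 1, 3.93 log2 units, was followed by 2.98 as the next highest and 2.81 as the lowest, so that the gap took 0.850 of the range. Replicate 1 had the lowest baseline, at 9.47 log2 units against 9.94 to 10.69. In its level before subtraction, with 13.39 on replicate 1 inside the range of 12.91 to 13.50, TAP1 did not pass the critical value.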

How the results depend on the processing

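The count of 7 of the 9 genes stayed at 7 or 8 under all 20 alternatives, and HLA-B, HLA-C, HLA-E, B2M and TAP1 kept their direction and call in each. ERAP1 stayed below the baseline in each that kept it, and the filter on the lowest genes removed it. NLRC5 rose above the baseline, which made the count 8, with mean plus 1 SD (0.146, limma adjusted p = 0.519), without SPATA5 and SPATA13 (1.16), with olfactory receptor genes as controls (0.912) and with median plus 2 scaled MAD (0.534, limma adjusted p = 0.0874). With mean plus 3 SD, TAP2 fell to 0.00297 (limma adjusted p = 1) and TAPBP to 0.248 (limma adjusted p = 0.717), and on replicates 1 and 3 alone, an alternative chosen after seeing the data, TAP2 stood at 0.995 (limma adjusted p = 0.134). Leaving out 1 replicate at a time gave 1.14 to 1.51 for TAP2, -1.22 to -1.11 for NLRC5 and -3.30 to -2.54 for ERAP1. No paired analysis was possible because the design holds 1 group.

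Among other named genes, 51 values changed sign, 25 passed and 19 lost limma's threshold without a change of sign and 1079 did neither. The 4 lower baselines gave 20 of these 25, by adding limma's call for HLA-F, ULBP3, NFYB, COL1A1 and NEFM under each. All distances are in log2 units. With mean plus 3 SD, HLA-F stood at -0.954, ULBP3 at -1.16, NFYB at -1.23, IRF9 at -0.425, HLA-DPA1 at -0.0954, HLA-DMB at -0.412, COL1A1 at -0.952 and NEFM at -0.656. Under that baseline limma's call ended without a change of sign for HSPA5 (0.465), PSME2 (0.369), HLA-DMA (0.139) and HLA-DOA (0.505). It ended in the same way for EED (0.0486), SUZ12 (0.223), NEFH (0.576) and KRT18 (0.000967). With mean plus 1 SD, PDIA3 stood at 1.22, TAPBPL at 0.0673 and JAK2 at 0.212. Without SPATA5 and SPATA13, HLA-G stood at 0.436, PDIA3 at 2.23, TAPBPL at 1.08, PSMB9 at 0.879, PSMB10 at 0.753, IRF1 at 0.158, JAK2 at 1.22, CD74 at 0.454 and PAX2 at 0.699. With olfactory receptor genes as controls, HLA-G stood at 0.193, PDIA3 at 1.98, TAPBPL at 0.834, PSMB9 at 0.635, PSMB10 at 0.510, JAK2 at 0.978, CD74 at 0.211 and PAX2 at 0.455. With median plus 2 scaled MAD, PDIA3 stood at 1.60, TAPBPL at 0.456, PSMB9 at 0.257, PSMB10 at 0.132, JAK2 at 0.600 and PAX2 at 0.0774. NFYB stood at -0.605 with the mean of log2 probe values and at -1.42 with the median of probes.

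On replicates 1 and 2 alone, ULBP3 stood at -0.187 and PDIA3 at 0.279, and on replicates 3 and 4 alone HLA-F at -0.361, NFYB at -0.411 and COL1A1 at -0.113. On replicates 1 and 3 alone ULBP3 stood at -0.192, and on replicates 2 and 4 alone, also chosen after seeing the data, NFYB at -0.0281, COL1A1 at -0.540 and NEFM at -1.93. Leaving out 1 replicate at a time gave -0.0562 (without replicate 4) to 0.400 for ULBP3, -0.275 to 0.112 (without replicate 3) for PDIA3, -0.126 (without replicate 1, and -0.0318 without replicate 2) to 0.282 for NFYB, -0.136 (without replicate 1) to 0.786 for COL1A1 and -0.485 (without replicate 1) to 1.63 for NEFM. Without replicate 1, IRF9 stood at 0.321 (limma adjusted p = 0.366), and without replicate 2, HLA-DMB stood at 0.681 (limma adjusted p = 0.132). The class II count of 4 became 2 with mean plus 3 SD, 9 without SPATA5 and SPATA13 and 8 with olfactory receptor genes, and the 9072 genes detected in all became 6729 to 12745 over the baselines tried. These baselines lay at 7.78 to 11.42 log2 units, and a shift in the baseline moves every distance by construction; for the other alternatives the cause was not tested. How strongly a probe binds was not measured, so a gene under the baseline has only a bound here.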
